A study of Mus musculus with 36 samples.

Results

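The genes described here encode the proteins of the cytosolic ribosome. They were chosen by name, as the protein-coding genes whose GENCODE vM21 symbol has the form of a small subunit (Rps, Rpsa) or large subunit (Rpl, Rplp0 to Rplp2) protein, and 81 of the 26348 genes in the count tables met the rule. Of these, 32 belong to the small and 49 to the large subunit. The counts come from single microglia, the resident macrophages of the brain, of male mice aged 6 months that were either wild-type (WT) or transgenic for an amyloid model (called APP here), in which prion promoter transgenes, mutant human APP (APPswe) among them, cause amyloid to be deposited. Cells were released mechanically at 4 °C and sorted as DAPI-negative, DRAQ5-positive, CD11b-high and CD45-intermediate, with or without CD11c, the integrin encoded by Itgax that marks a subset of microglia near plaques. The 6 groups were CD11c-negative cells of WT cortex, WT hippocampus, APP cortex and APP hippocampus and CD11c-positive cells of APP cortex and APP hippocampus. Each group held 4 replicates, a replicate being all cells of a titled animal, region and gate, except CD11c-positive APP hippocampus with 3, titled 1-2, 2-3 and 4, of which the first pair may be pools that share an animal.

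Ribosomal proteins fold onto ribosomal RNA in the nucleolus and are needed in near-equal numbers, since a ribosome carries a single copy of almost every protein. In mammals their mRNAs begin with a run of pyrimidines, the 5' terminal oligopyrimidine (TOP) tract, which lets mTOR signalling and the binding protein LARP1 set the translation of the whole family together. Ribosomal protein mRNAs are among the most abundant of any cell, including microglia.

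The start of these genes is shown because nearly all members had a positive log2 fold change at both CD11c gates. Whether the letters of the start bear on this was not tested. RefSeq (GRCm38.p6) promoters were at hand for 61 of the 81 members, at 72 start sites. The 60 bases from 40 before to 20 after the start are printed 5' to 3' on the gene's strand, with the longest run of C and T in capitals, for the member with the highest level (Rps25), for Rps9, which differed between the CD11c-negative hippocampal groups, for 2 members that passed the threshold in 3 comparisons each (Rpl5, Rpl13) and for the paralogue Rpl7l1, whose group levels followed those of the family least.
Rps25, chr9:44407674-44407733, plus strand: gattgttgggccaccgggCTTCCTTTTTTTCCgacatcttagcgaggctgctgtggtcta
Rps9, chr7:3704001-3704060, plus strand: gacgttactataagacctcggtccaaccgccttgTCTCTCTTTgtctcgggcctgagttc
Rpl5, chr5:107900488-107900547, plus strand: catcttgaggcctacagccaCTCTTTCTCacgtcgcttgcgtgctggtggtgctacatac
Rpl13, chr8:123102310-123102369, plus strand: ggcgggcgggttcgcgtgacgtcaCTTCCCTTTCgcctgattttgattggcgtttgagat
Rpl7l1, chr17:46782637-46782696, minus strand: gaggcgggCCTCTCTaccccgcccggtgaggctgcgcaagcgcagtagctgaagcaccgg
The run was 14 bases long in Rps25, 10 in Rpl13, 9 in Rps9 and Rpl5 and 7 in Rpl7l1. Rpl41 and Rps26, called in 4 and 2 comparisons, are not printed, and their runs were 4 and 9 bases long. By the RefSeq start the run lay wholly before the mRNA in Rps25, Rpl5, Rpl13 and Rpl7l1, and it spanned the start in Rps9. The capitals therefore do not mark the TOP tract as such. Its median length in this window was 8.5 bases over the members' start sites and 6 over all 32851 start sites, and runs of at least 10 bases stood at 37.5% and 11.7% of them. In the 300 bases around the start, searched on both strands, the ETS motif CCGGAAG was present at 37.5% of member and 8.86% of all start sites, the YY1 motif AAGATGGC at 11.1% and 2.75%, the SP1 motif GGGCGG at 61.1% and 35.7% and the TATA box TATAAA at 9.72% and 13.6%. None of these motifs contains another. These are matches of letters only.

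The 36 libraries gave 2657 cells and replicates of 1037425 to 4484427 counts. The gate was reflected in its own gene: Itgax stood at 159 ± 50.5 CPM (the usual depth-scaled count, here after TMM scaling, as mean ± SD over replicates) in CD11c-positive APP cortex and 76.0 ± 10.4 CPM in hippocampus, against 1.24 ± 1.94 and 8.73 ± 15.4 CPM in their CD11c-negative counterparts. In the edgeR quasi-likelihood test used below, Itgax did not pass at either gate. Its log2 fold change was 7.25 ± 1.92 (± SE, adjusted p = 0.0779) in cortex and 3.13 ± 1.61 (adjusted p = 0.493) in hippocampus. CD11c-negative APP hippocampus replicate 2 stood at 31.8 CPM. The microglial marker Tmem119 was present in all groups, from 417 to 2438 CPM. Markers of other brain cells summed to 1800 to 2621 CPM in the 3 cortical and 452 to 501 CPM in the 3 hippocampal groups (group means, scaled to raw totals). Within cortex, CD11c-positive replicates held 1949 to 3220 and CD11c-negative APP replicates 1394 to 2091 CPM of such markers, and within hippocampus the 2 ranges overlapped (344 to 613 and 282 to 639 CPM). The genotype tag of the labels contradicts the title in 17 of 36 libraries, and groups follow the title. The titles carry a further number that may mark library sets; WT and APP libraries never share it, nor do the 2 hippocampal gates or the 2 regions, so that set cannot be told apart from genotype, region or hippocampal gate.

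Ribosomal protein genes took 2.67 ± 0.167% of all counts in CD11c-positive APP cortex and 1.13 ± 0.038% in CD11c-negative APP cortex. In hippocampus the CD11c-positive cells held 2.87 ± 0.255% and the CD11c-negative APP cells 1.51 ± 0.096%. WT cells stood at 1.26 ± 0.155% in cortex and 1.07 ± 0.225% in hippocampus. Every CD11c-positive replicate (2.49 to 2.85% in cortex, 2.58 to 3.07% in hippocampus) lay above every CD11c-negative replicate (0.934 to 1.63%). Among CD11c-negative cells, APP hippocampus (1.39 to 1.63%) overlapped with WT hippocampus (0.934 to 1.41%) through WT replicate 4 alone, the other 3 WT replicates lying at 0.934 to 0.98%. The 2 CD11c-negative cortical groups overlapped (1.11 to 1.48% in WT, 1.08 to 1.16% in APP). These shares are given without a test, because the members were chosen with earlier results of these data known.

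**Figure D1:**
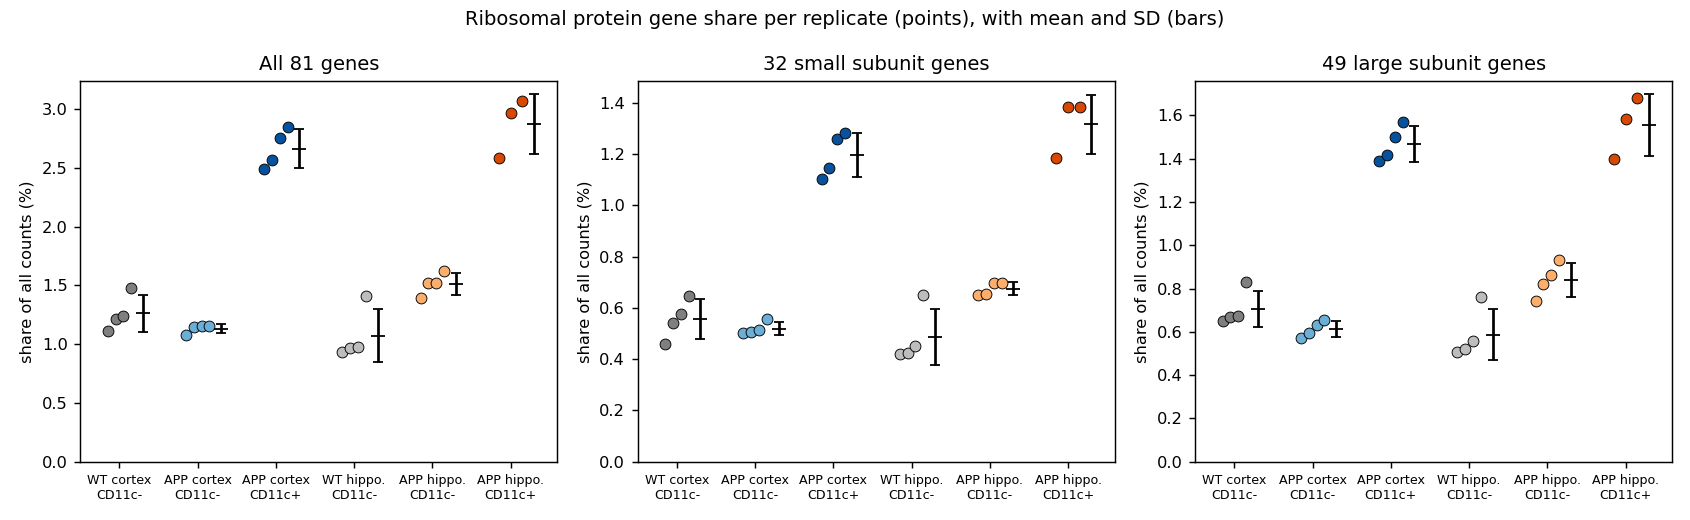
Share of all counts (%, y axis) taken by all 81 ribosomal protein genes, by the 32 small subunit genes and by the 49 large subunit genes in each replicate (points) of the 6 groups (x axis), with mean and SD at the right of each group. In each panel the 7 CD11c-positive replicates lie above the 16 CD11c-negative ones, and WT hippocampus has a single replicate, at 1.41% in the first panel, well above its other 3.

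The share was carried by both subunits. Small subunit genes took 1.2 ± 0.087% of counts in CD11c-positive and 0.519 ± 0.026% in CD11c-negative APP cortex, and large subunit genes 1.47 ± 0.082% and 0.614 ± 0.037%. In hippocampus the small subunit stood at 1.32 ± 0.115% and 0.674 ± 0.025%, and the large subunit at 1.55 ± 0.143% and 0.840 ± 0.079%. The log2 ratio of small to large subunit counts lay between −0.35 ± 0.12 (WT cortex) and −0.24 ± 0.04 (CD11c-positive APP hippocampus) in group means. Its replicate values, −0.50 to −0.09 over all 6 groups, overlapped in every comparison, so that no difference between the subunits beyond the replicate spread was seen. The widest range, −0.39 to −0.09, was that of CD11c-negative APP cortex.

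Levels differed widely among members. By CPM over the 6 groups Rps25 (1010), a small subunit protein used by several viral internal ribosome entry sites, led, and the 5S rRNA binding protein gene Rpl5 (826) came next. Among the highest were also Rps27 (622), Rps14 (600), Rps3 (547), Rpl35 (531) and Rpl4 (480). Per kilobase of the annotated principal transcript the order changed, with Rps27 at 1803, Rps29 at 1231 and Rps25 at 789 CPM per kilobase. Whether counts scale with transcript length in these libraries was not tested. If they do not, this order favours short genes. The lowest were Rpl39l (3.95 CPM), Rpl23a (8.80), Rps10 (10.8), Rpl22l1 (12.4) and Rpl13a (16.7), and a count was present in 57.7% of cells for Rps25 and 0.226% for Rpl39l. Processed pseudogenes copy these genes in large number, and how reads were shared with them is not known. The tables list 249 genes named as pseudogenes of 57 members, with 464485 counts beside the members' own 1170509, and 21 members had fewer counts than their pseudogenes, among them Rpl23a (87.7% of the counts of both in pseudogenes), Rpl17 (85.0%), Rps10 (82.0%) and Rps12 (80.3%). Levels of these members are therefore uncertain. All 81 members were kept in the sums, and 80 passed the filter on low counts and were tested, Rpl39l being the exception.

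In APP cortex, CD11c-positive cells were compared with CD11c-negative cells of the same animals by title. In CD11c-positive cells 14 of 80 tested members (17.5%) rose and 0 fell at an adjusted p of 0.05 (edgeR quasi-likelihood test, Benjamini-Hochberg adjustment over all genes), where 0.524% of all 14892 tested genes rose and 0.705% fell. The median log2 fold change was 1.29 over the members and 0.19 over all genes, and 79 of 80 members had a positive value. At an unadjusted p of 0.05, 49 members were higher and 0 lower, and 1797 of all 14892 genes lay under it in either direction. The 4 replicates of each gate did not overlap for 58 members, all higher in CD11c-positive cells, against 8.84% of all genes, or 13.4% of genes at 50 CPM or more (3.41% of all genes were lower without overlap).

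Rpl41, the shortest of the ribosomal proteins, had the smallest p. It stood at 755, 623, 811 and 819 CPM in the CD11c-positive replicates 1 to 4 and at 188, 186, 266 and 231 CPM in the CD11c-negative ones, and rose by a log2 fold change of 1.79 ± 0.33 (± SE, adjusted p = 0.00346). The gates did not overlap. Rpl5, which with Rpl11 carries 5S rRNA and restrains the p53 ligase Mdm2, stood at 1464, 1173, 1326 and 1320 against 461, 759, 605 and 774 CPM and rose by 1.02 ± 0.19 (adjusted p = 0.00444). Rps25 stood at 1884, 1488, 1594 and 1852 against 952, 628, 555 and 921 CPM and rose by 1.16 ± 0.23 (adjusted p = 0.00738). In neither gene did the gates overlap. Rps26, whose protein lines the mRNA exit channel, rose from 147 ± 52.8 to 485 ± 89.6 CPM (1.73 ± 0.35). Rpl26 rose from 173 ± 24.9 to 493 ± 22.2 CPM (1.51 ± 0.30), and Rps9, whose protein lies near the mRNA entry, from 200 ± 72.4 to 542 ± 53.9 CPM (1.44 ± 0.31). Rplp1 of the acidic stalk that receives the elongation factors rose by 1.54 ± 0.34, and Rpl4, whose loop lines the peptide exit tunnel, by 1.47 ± 0.33. The further called members were Rps23, Rpl14, Rpl13, Rps14, Rpl18 and Rps7, with log2 fold changes of 1.13 to 2.07. Of the 14 called members, 6 belong to the small and 8 to the large subunit.

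The number past the threshold depended on the setting, the size of the shift less so. Leaving out any 1 of the 8 replicates gave 2 (without CD11c-positive replicate 1) to 8 called members, and a covariate of detected genes per cell gave 0 with a median of 1.28. Removing cells that carried counts of other cell type markers took out 876 cells over all 6 groups, where 2657 had been kept. It gave 5 with a median of 1.49, on fewer counts per replicate. The fit of these 2 groups with the replicate number as block gave 22, fewer than the same 2 groups without the block. How many of all genes passed in these settings is not given here.

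In APP hippocampus the same comparison of the gates gave 7 called members (8.75%), all higher in CD11c-positive cells, where 0.443% of all genes rose and 0.107% fell. The median log2 fold change was 1.05 over members and 0 over all genes, and 77 of 80 members were positive. At an unadjusted p of 0.05, 36 members were higher and 0 lower, and 1626 of all 14892 genes lay under it in either direction. Replicates did not overlap for 52 members, all higher, against 7.94% of all genes and 14.3% of those at 50 CPM or more (3.2% of all genes were lower without overlap). Rps25 led here. It stood at 1227, 1515 and 1293 CPM in the CD11c-positive replicates and at 361, 403, 573 and 659 CPM in the CD11c-negative ones, and rose by 1.43 ± 0.24 (adjusted p = 0.0038). Its lowest CD11c-positive replicate was well above the highest CD11c-negative one. Rpl41 stood at 718, 819 and 785 against 158, 339, 216 and 242 CPM and rose by 1.70 ± 0.34 (adjusted p = 0.016). Rpl5 rose from 511 ± 71.4 to 1061 ± 74.5 CPM (1.05 ± 0.21), and Rps14, of the small subunit platform, from 397 ± 133 to 1001 ± 38.6 CPM (1.34 ± 0.28). Rps28 rose by 1.84 ± 0.40, Rps3, which lies at the mRNA entry, by 1.35 ± 0.30 and Rpl34 by 1.67 ± 0.38.

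Rpl5, Rpl41, Rps14 and Rps25 passed the threshold at the gate in both regions. The count of 7 fell to 1 with RLE scaling, to 1 once detected genes per cell entered the fit and to 0 without cells that carried other cell type markers (medians 0.85, 0.99 and 0.91). It was 1, 0 and 1 without CD11c-positive replicate 1-2, 2-3 or 4, and 2 to 5 without a CD11c-negative replicate.

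**Figure D2:**
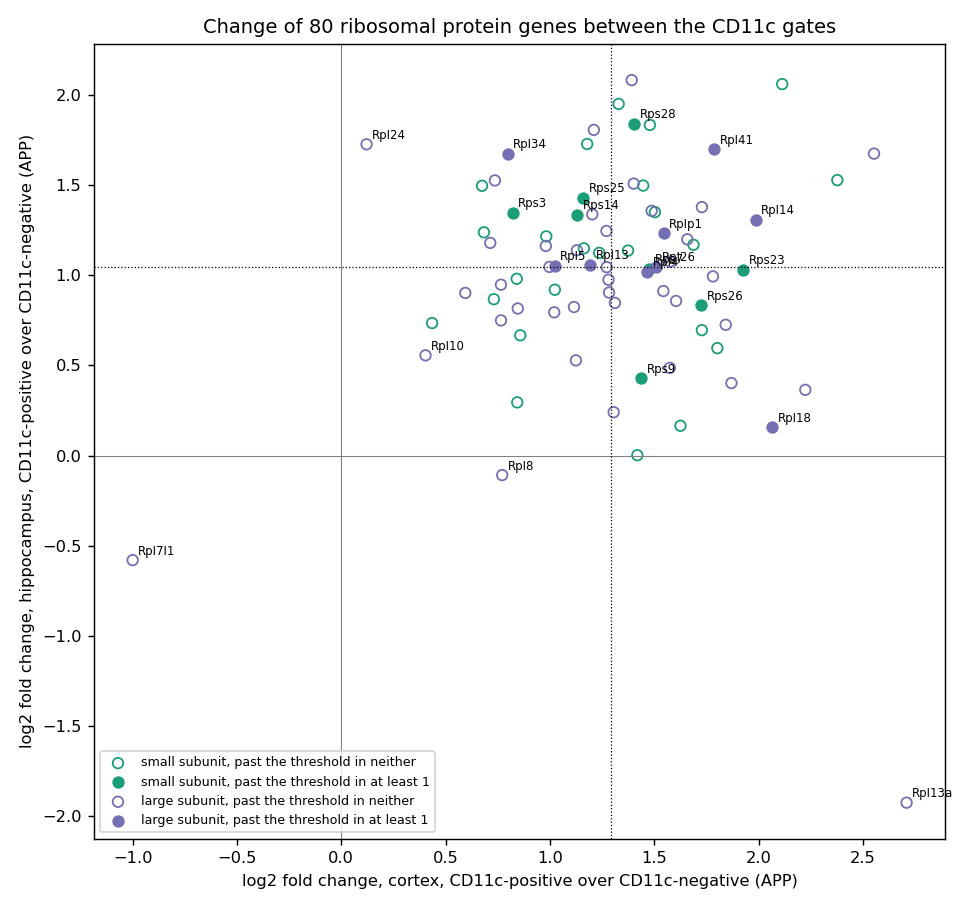
Log2 fold change between CD11c-positive and CD11c-negative APP cells in cortex (x axis) and hippocampus (y axis) for the 80 tested members, small subunit in green and large subunit in violet, filled where the member passed the adjusted threshold in at least 1 region; dotted lines mark the medians of 1.29 and 1.05. Nearly all points have positive values on both axes, Rpl7l1 lies at −1.0 and −0.58, and Rpl13a, at 2.71 and −1.92, is a gene of 16.7 CPM with wide errors.

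Whether the gate effect differed between the regions was tested by an interaction. It called 0 of 80 members and 0 of 14892 genes with edgeR (0% of all genes in either direction), while 1116 genes lay at an unadjusted p under 0.05. DESeq2 called 0 members, and 104 genes higher and 144 lower. At an unadjusted p of 0.05, 0 members had a larger gate effect in hippocampus and 2 a smaller one, Rpl18 (−1.91 ± 0.72, adjusted p = 0.496) and Rps9 (−1.01 ± 0.45, adjusted p = 0.623). The next smallest p values were those of Rpl13a, Rpl24 and Rps26. A median of −0.14 over members compared with −0.11 over all genes. For Rps9 the hippocampal gate effect was 0.43 ± 0.33, as its CD11c-negative hippocampal level was already 476 ± 11.4 CPM against 200 ± 72.4 CPM in cortex.

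CD11c-positive APP cells were then set against WT cells, with the same CD11c-positive replicates as above. In cortex 8 members (10%) rose and 0 fell, where 0.618% of all genes rose and 0.457% fell, with a median of 1.18 over members and 0.15 over all genes. They were Rps25 (1.10 ± 0.23, adjusted p = 0.0139), Rpl13 (1.33 ± 0.28), Rpl41 (1.52 ± 0.32), Rps14 (1.22 ± 0.27), Rplp1 (1.47 ± 0.33), Rpl5 (0.83 ± 0.19), Rpl26 (1.22 ± 0.30) and Rps28 (1.55 ± 0.38). Replicates did not overlap for 57 members, all higher, against 7.93% of all genes. Rpl13 stood at 599, 466, 658 and 543 CPM in CD11c-positive and at 240, 309, 216 and 136 CPM in WT replicates. The count of 8 went to 0 without CD11c-positive replicate 1 or 4 or WT replicate 4 and to 1, 2, 3 and 5 without WT replicate 3, CD11c-positive replicate 3, WT replicate 1 and CD11c-positive replicate 2. It was 0 once detected genes per cell entered the fit.

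In hippocampus 20 members (25%) rose and 0 fell against WT, where 1.18% of all genes rose and 0.893% fell. The median was 1.48 over members and 0.06 over all genes. Rpl13 stood at 593, 633 and 819 CPM in the CD11c-positive replicates and at 238, 129, 118 and 162 CPM in the WT ones, and rose by 2.07 ± 0.30 (adjusted p = 0.000231), the smallest p of any member in any comparison. Rps7 rose from 87.8 ± 57.5 to 422 ± 50 CPM (2.27 ± 0.40) and Rps28 from 95.7 ± 50.3 to 450 ± 85.7 CPM (2.23 ± 0.41). Rplp1 (1.95 ± 0.36), Rps14 (1.49 ± 0.29), Rpl41 (1.73 ± 0.34), Rps9 (1.65 ± 0.33) and Rps26 (1.81 ± 0.37) followed. Of the 20 called members 11 were of the small and 9 of the large subunit, and the median was 1.66 for the small and 1.32 for the large subunit. Rps25, the most abundant member, did not pass (0.50 ± 0.24, adjusted p = 0.293), with 1345 ± 151 CPM against 951 ± 332 CPM in WT cells. Replicates did not overlap for 47 members, all higher, against 10.7% of all genes. Without CD11c-positive replicate 1-2 or 4 the count was 9, and it was 0 once detected genes per cell entered the fit. Detected genes per cell themselves differed, at 872 ± 135 in CD11c-positive APP and 436 ± 37.6 in WT hippocampus. In cortex they were 836 ± 136 and 590 ± 63.7. A count of 0 with this covariate therefore does not show, in either region, that members did not rise.

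Rpl41 and Rps14 were the members past the threshold in all 4 of these comparisons, and 27 members were called in at least 1 comparison of the study. The same numbers over all genes were not computed. Calls in any of several comparisons add up for every gene, so these numbers alone are not particular to the members. The gate comparison and the WT comparison of a region share their CD11c-positive replicates, so their calls are not independent.

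In CD11c-negative cells the genotypes were compared in each region. In cortex 0 members passed with edgeR, as did 0 of all 14892 genes (0% in either direction), of which 1354 lay at an unadjusted p under 0.05 and DESeq2 called 125 higher and 120 lower. Of the members, 0 were higher and 1 lower at an unadjusted p of 0.05, DESeq2 called 0, and the median was −0.07. Replicates did not overlap for 2 members, both lower in APP, where 1.05% of all genes were lower and 1.16% higher (2.16% of those at 50 CPM or more). In hippocampus 1 member rose and 1 fell in APP, each 1.25% of members, where 0.329% of all genes rose and 1.19% fell.

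The member that fell was Rps25. It stood at 1270, 638, 692 and 1204 CPM in WT hippocampus and at 361, 403, 573 and 659 CPM in CD11c-negative APP hippocampus, a log2 fold change of −0.93 ± 0.23 (adjusted p = 0.0334). WT replicates 1 and 4 were high, and WT replicate 2 lay just below APP replicate 4, so the groups overlapped. The member that rose was Rps9, at 320, 118, 232 and 150 CPM in WT and 479, 491, 466 and 469 CPM in APP replicates (1.22 ± 0.31, adjusted p = 0.0436), and here the groups did not overlap. The median over all 80 members was 0.41, with 53 of them positive. At an unadjusted p of 0.05, 10 members were higher and 2 lower. Of all 14892 genes, 2353 lay under it in either direction, a share close to that of the members. Among the members Rpl13 (1.02 ± 0.28, adjusted p = 0.0737) and Rps7 (1.23 ± 0.37, adjusted p = 0.111) came next by p. Replicates did not overlap for 2 members that were higher and 1 that was lower, where 2.34% and 2.32% of all genes did so.

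Neither hippocampal call was held by all settings. Rps9 did not pass without any of the 4 APP replicates or without WT replicate 2, 3 or 4 (adjusted p 0.0899 to 0.177), nor did Rps25 without APP replicate 1 or 2 or WT replicate 1 or 4. With the genotype tag in place of the title 0 members passed, and Rps9 stood at 0.15 and Rps25 at −0.69.

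Whether the genotype effect differed between the regions was tested in the same fit. The interaction called 0 of 80 members with edgeR, where 0.208% of all genes were called higher and 0.799% lower. Beside this, 1944 of all 14892 genes lay at an unadjusted p under 0.05. Of the members, 6 were higher and 2 lower at that level, a smaller share than of all genes. DESeq2 called 2 members higher, and its number over all genes is not given here. Rps9 had the smallest p (1.5 ± 0.43, adjusted p = 0.106), before Rps7 (1.5 ± 0.52), Rps26 (1.33 ± 0.49), Rps25 (−0.87 ± 0.32, adjusted p = 0.216) and Rps23 (1.63 ± 0.62). The other 3 members at an unadjusted p under 0.05 were of the large subunit, Rpl36a, Rpl13 (0.88 ± 0.40) and Rpl24 (−1.77 ± 0.83), and the median interaction was 0.29 over the small and 0.53 over the large subunit.

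**Figure D3:**
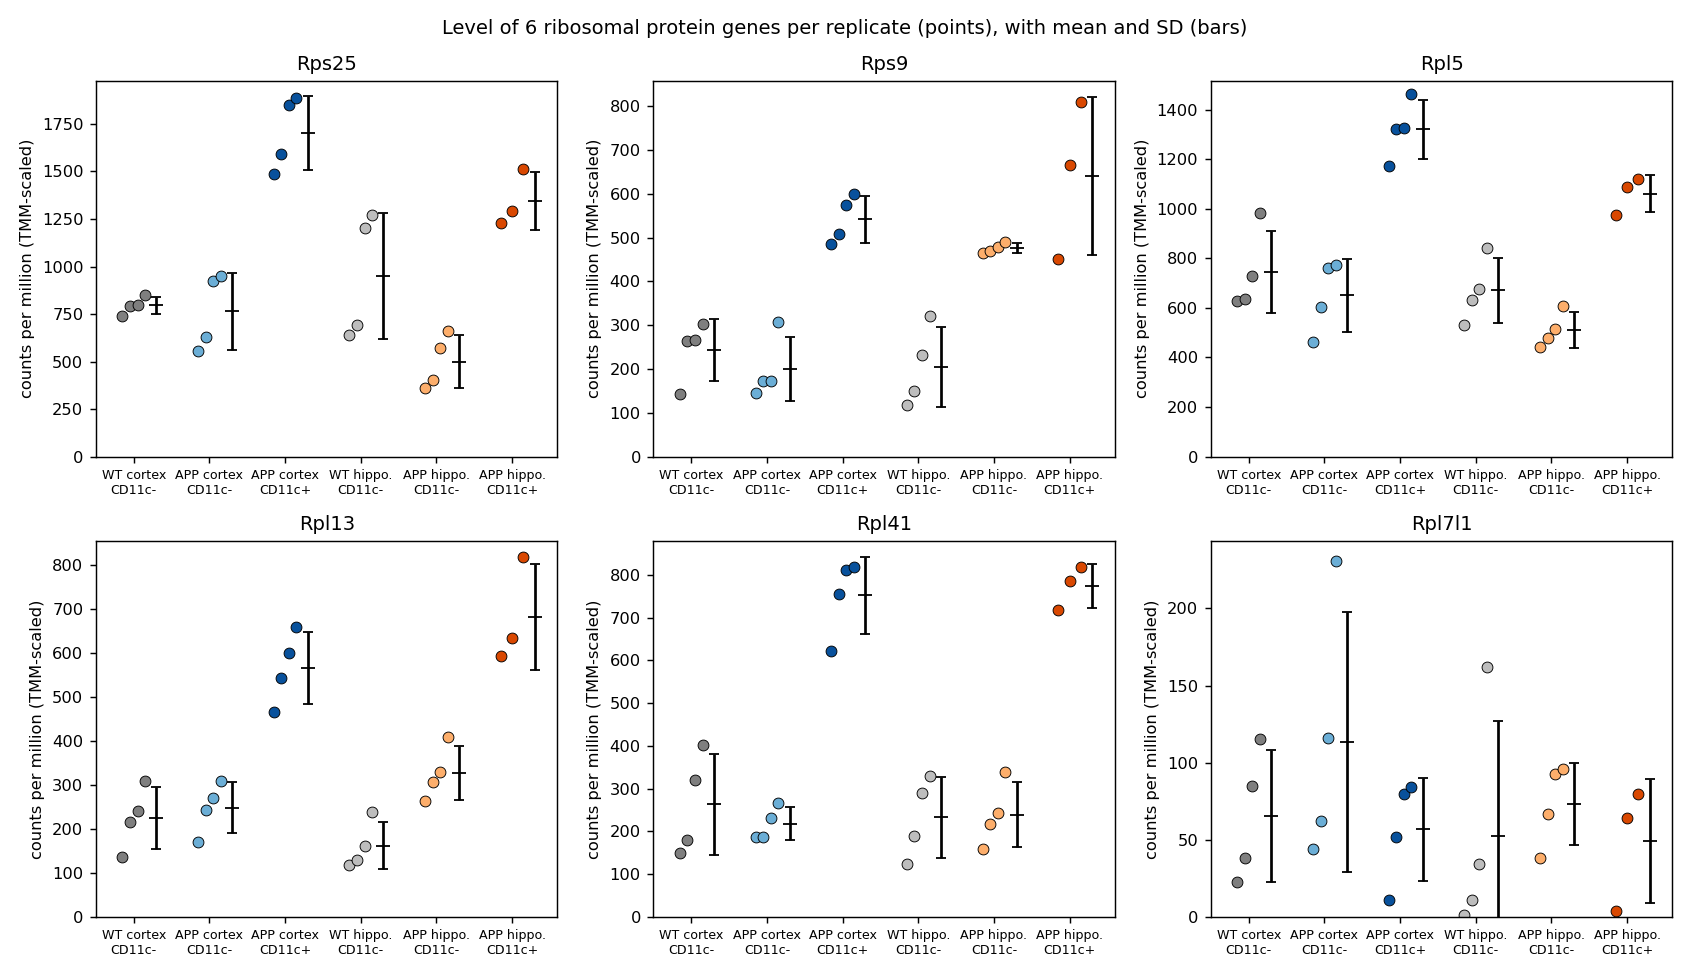
Level (CPM after TMM scaling, y axis, starting at 0) of 6 members in each replicate (points) of the 6 groups (x axis), with mean and SD. Rps25, Rpl5, Rpl13 and Rpl41 are high in both CD11c-positive groups; Rps9 is also high, at 466 to 491 CPM, in CD11c-negative APP hippocampus, where Rps25 is at its lowest; Rpl7l1 shows no such order.

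Between the regions single members rarely differed. Hippocampus was compared with cortex within each kind of cell. In WT cells 0 members passed (0.235% of all genes rose and 1.40% fell), with a median of −0.19 over members and −0.22 over all genes. At an unadjusted p of 0.05, 1 member was higher and 6 were lower. Of all 14892 genes, 3301 lay under it in either direction, a larger share than of the members. DESeq2 called 2 members lower. In CD11c-negative APP cells 1 member rose (0.154% of all genes rose and 2.14% fell). This was again Rps9, from 173, 306, 173 and 146 CPM in cortex to 479, 491, 466 and 469 CPM in hippocampus (1.25 ± 0.31, adjusted p = 0.0297), values that did not overlap. The median there was 0.22. Animals share their numbers across the regions in the titles, and with the replicate number as block Rps9 did not pass (1.31, adjusted p = 0.127), nor did it when any of 7 of the 8 replicates was left out, all but APP cortex replicate 2 (adjusted p 0.0717 to 0.112). In CD11c-positive APP cells 0 members passed with edgeR and with DESeq2, and 0 lay at an unadjusted p under 0.05. Of all genes 0% were higher and 0.222% lower there, and 1675 lay at an unadjusted p under 0.05. The members' median was 0.09.

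Since nearly all members had positive values at both gates, each member was also tested against the family. For this the summed member counts of a replicate served as its library size in the same fit. In this relative fit 0 members passed with edgeR in 8 of the 9 comparisons, and DESeq2 called 0 in 6 of the 9. For the cortical gate, where 0.0672% of all genes were called higher and 6.43% lower on this scale, 79 of 80 members lay within 2 SE of the members' median. For the hippocampal gate (0.134% and 2.41%) the number was also 79. It was 80 for CD11c-positive APP against WT cortex and the region in CD11c-positive APP cells, and 79 for the cortical genotypes. For the region it was 75 in WT cells and 73 in CD11c-negative APP cells. The hippocampal genotypes and CD11c-positive APP against WT hippocampus each had 71. Of all genes, 0.181% were called higher and 5.19% lower for CD11c-positive APP against WT cortex, 0.0403% and 2.5% for the region in CD11c-negative APP cells, 0% and 0.201% in CD11c-positive APP cells and 0.248% and 1.13% in WT cells. The members nearest to a departure in cortex were Rpl7l1 (−2.28 ± 1.01, adjusted p = 0.218), Rpl24 (−1.12 ± 0.61) and Rpl41 (0.53 ± 0.30), and in hippocampus Rpl41 (0.63 ± 0.32, adjusted p = 0.349), Rpl8 (−1.22 ± 0.63) and Rps9 (−0.65 ± 0.36). A p above the threshold does not show that these members moved with the family.

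The exception was Rps25 in the hippocampal genotype comparison. Relative to the family it fell by 1.17 on the log2 scale (SE 0.23, adjusted p = 0.004) in CD11c-negative APP cells, where 0.289% of all genes were called higher and 1.74% lower. Unlike the absolute change, it passed without any single replicate (−0.96 to −1.37, adjusted p up to 0.0258), with TMM over the members (−1.31) and with DESeq2 (−1.17). Rpl5, in the same direction, did not pass (−0.68 ± 0.21, adjusted p = 0.0961), and Rps9 was opposite (0.93 ± 0.33, adjusted p = 0.176). In CD11c-positive APP against WT hippocampus Rps25 (−0.81 ± 0.25, adjusted p = 0.0523) and Rpl5 (−0.70 ± 0.22, adjusted p = 0.0617) were just short of the threshold, where 0.436% of all genes were called higher and 6.17% lower. DESeq2 called 3 members lower there, and leaving out WT replicate 3 gave 5. Both contrasts share the 4 WT hippocampal replicates.

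**Figure D4:**
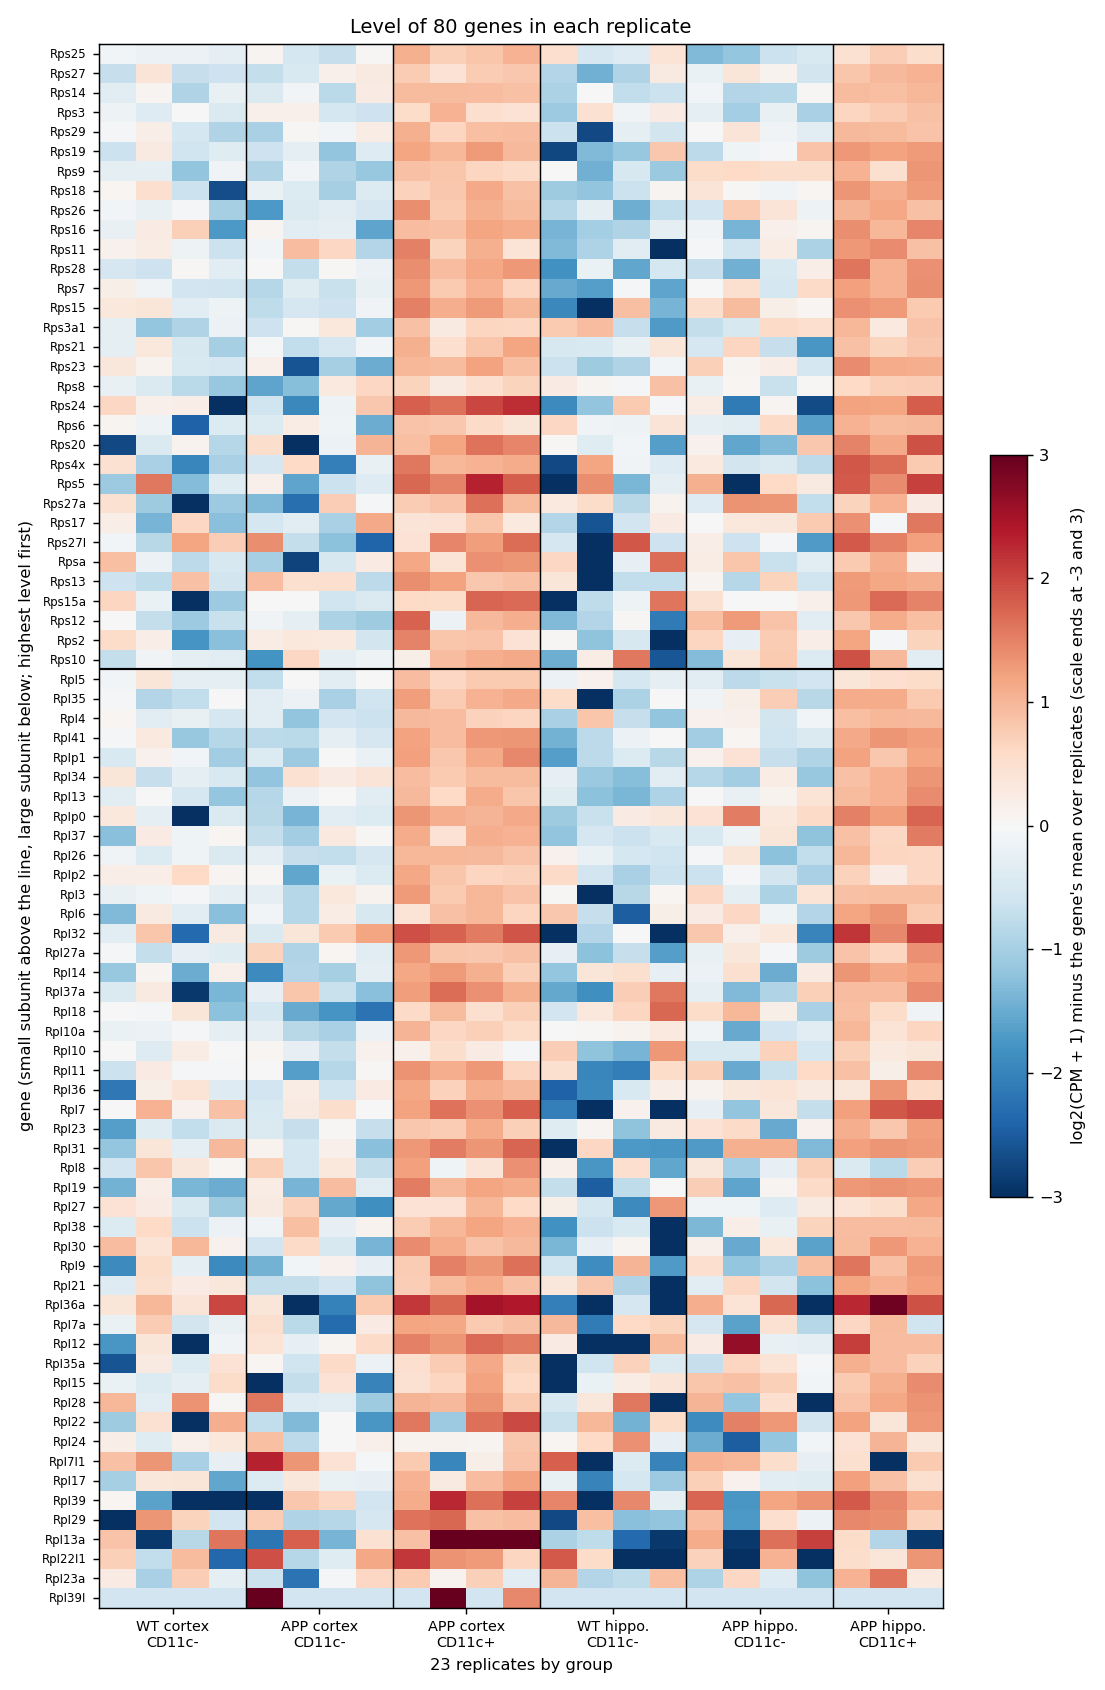
Level of 80 of the 81 members (rows, small subunit above the line and large subunit below, each from the highest level to the lowest) in the 23 replicates (columns, by group), as log2(CPM + 1) minus the member's mean over replicates; red is above and blue below that mean, and the scale ends at −3 and 3. The CD11c-positive columns are red in nearly all rows, and the WT hippocampal columns hold the most blue.

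How closely members followed each other was described by the Pearson correlation of each with the mean of the others over the 23 replicates, which share group, depth and scaling. It was highest for Rplp1 (0.89), Rpl13 (0.89), Rpl41 (0.87) and Rps7 (0.87) and lowest for Rpl7l1 (0.09), Rpl24 (0.14), Rpl13a (0.31) and Rpl10 (0.31). The order rests on differences between groups: after subtracting group means Rpl7l1 stood at 0.50, among the highest, and Rplp1 at 0.31, Rpl41 at 0.32, Rps7 at 0.28, Rpl13 at 0.15, Rpl24 at −0.01, Rpl10 at −0.04 and Rpl13a at −0.32. Rpl10, which completes the late joining of the subunits, averaged 128 ± 31.1 and 169 ± 29.1 CPM at the negative and positive cortical gate, and Rpl24 68.8 ± 33.0 and 74.8 ± 20.7 CPM. Reads of both were open to pseudogenes to a different degree: 66.1% of the counts of Rpl10 and its named pseudogenes lay in the pseudogenes, while Rpl24 had no such gene.

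Of the genes named as paralogues of ribosomal proteins, 4 were members with counts. Rps27l, a p53 target that resembles Rps27, averaged 154 ± 51.1 CPM (CD11c-positive) against 61.2 ± 72.6 CPM (CD11c-negative) in APP cortex and 186 ± 39.7 and 48.1 ± 23.6 CPM in hippocampus, and it did not pass in either (1.33 ± 0.96 and 1.95 ± 1.02, adjusted p = 0.72 and 0.507). Rpl7l1, which resembles Rpl7, stood at 79.8, 11, 51.7 and 84.0 CPM in CD11c-positive replicates 1 to 4 of APP cortex, and the CD11c-negative ones held 231, 116, 61.8 and 43.8 CPM (−1.0 ± 0.99, adjusted p = 0.88). Its replicates overlapped in every group. Rpl22l1, which resembles Rpl22, had 325 counts in CD11c-positive APP cortex and 93 to 141 counts in each other group. Rpl39l, known from testis, was almost confined to 1 CD11c-negative and 1 CD11c-positive replicate of APP cortex (60.6 and 31.2 CPM, 3.04 CPM or less in the other 21).

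The shift was also visible in single cells. The median cell had counts of 25 members in CD11c-positive and 7 in CD11c-negative APP cortex, of 29 and 12 in APP hippocampus, and of 8 and 6 in WT cortex and hippocampus. The median share per cell was 2.78% and 1.01% in APP cortex and 2.69% and 1.38% in APP hippocampus. Of the CD11c-positive cells, 80.7% in cortex and 56.9% in hippocampus had a share above the 90th percentile of the CD11c-negative APP cells of their region. The middle of the distribution had moved, not a tail alone: the 25th percentile of CD11c-positive cells was 2.13% in cortex and 1.88% in hippocampus, above the 75th percentile of CD11c-negative cells in cortex (1.46%) and just below it in hippocampus (1.93%).

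Cells were also thinned to 5000 counts each, which left out 73 shallower cells. At this depth the share of cells with a count was higher in CD11c-positive cells for 81 of 81 members in cortex and 78 of 81 in hippocampus. For the median member it was 23.1% against 6.36% of cells in cortex and 24.9% against 9.29% in hippocampus (29.8% against 9.47% and 34% against 12.7% before thinning). In CD11c-negative hippocampus it was higher in APP for 77 of 81 members, with a median of 9.29% against 4.45% in WT, and in cortex for 26 of 81, with 6.36% against 7.55%. Rpl13 was found in 50.1% of thinned CD11c-positive and 15.7% of CD11c-negative cells of APP cortex. The same numbers over all genes were not computed. Detected genes of any kind were also more numerous at this depth in CD11c-positive cells (means of 836 against 549 in cortex and 872 against 622 in hippocampus). In CD11c-negative hippocampus they were 622 in APP against 436 in WT. The numbers of members therefore cannot be read as particular to the family. The cells of a group come from 3 or 4 replicates and are not themselves replicates, so these shares carry no test. A further fit took, per replicate, how many cells held 5 or more counts of a gene, in place of its sum. By it 63 of 69 tested members rose at the cortical and 44 of 69 at the hippocampal gate, and 16 rose and 1 fell between the genotypes in hippocampus. On that measure 455, 280 and 156 of 1966 tested genes rose and 475, 301 and 290 fell.

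Other measures of the cells moved in the same direction. CD11c-positive cells held more detected genes at 5000 counts, 836 ± 136 against 549 ± 90.5 in APP cortex and 872 ± 135 against 622 ± 31.1 in APP hippocampus, and WT cells held 590 ± 63.7 in cortex and 436 ± 37.6 in hippocampus. The mitochondrial share of counts was 2.49 ± 0.421% against 1.2 ± 0.296% and 2.23 ± 0.304% against 1.18 ± 0.104% at the 2 gates. Their part in the results was tested only as far as the covariate above and the following bins go. Among cells with 400 to 600 other genes detected at 5000 counts, the ribosomal share was 2.40 ± 0.251% in CD11c-positive (n = 4) and 1.01 ± 0.116% in CD11c-negative APP cortex (n = 4). In hippocampus it was 1.51 ± 0.255% (2 replicates with at least 5 such cells) and 1.45 ± 0.109% (n = 4). Among cells with 600 to 800 genes it was 2.72 ± 0.191% and 1.37 ± 0.236% in cortex and 2.51 ± 0.0525% (n = 3) and 1.58 ± 0.0803% in hippocampus. Among cells with 800 to 1000 genes the hippocampal values were 3.01 to 3.03% (n = 3) and 1.58 to 1.7% (n = 2). The cortical gates did not overlap in the 2 bins given, and the hippocampal gates overlapped among cells of 400 to 600 genes but not in the 2 bins above. CD11c-negative hippocampal cells of 400 to 600 genes stood at 1.31 to 1.57% in APP and 0.918 to 1.49% in WT replicates, which overlap.

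**Figure D5:**
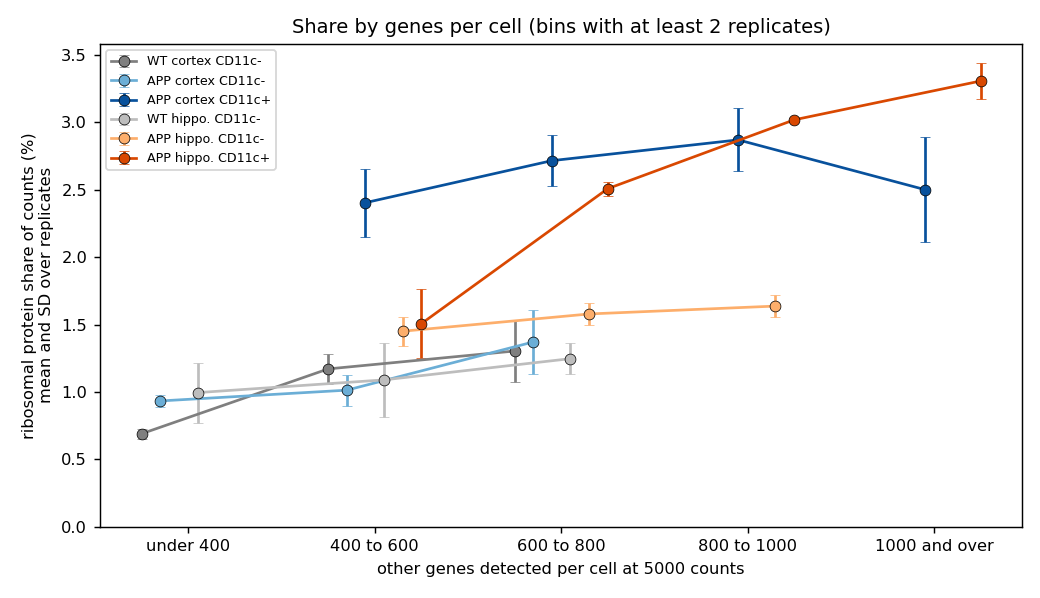
Ribosomal protein share of counts (%, y axis) in cells binned by the number of other genes detected at 5000 counts (x axis), as mean and SD over replicates with at least 5 cells in the bin, for bins with at least 2 replicates. CD11c-positive APP cortex lies between 2.40 and 2.87% in its 4 bins, above the CD11c-negative groups, while CD11c-positive APP hippocampus goes from 1.51 to 3.31% across the bins.

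Of ribosome partners outside the name rule, Fau, which encodes a ubiquitin-like protein fused to the small subunit protein eS30, followed the family. It rose from 205 ± 59.4 to 638 ± 107 CPM at the hippocampal gate (1.64 ± 0.35, adjusted p = 0.0241) and passed in CD11c-positive APP against WT cells of cortex (1.45 ± 0.33) and hippocampus (1.90 ± 0.35), while at the cortical gate it stood at 1.27 ± 0.33 (adjusted p = 0.0577). Rack1, a scaffold on the small subunit, stood at 621 ± 89.6 and 200 ± 152 CPM at the cortical gate (1.64 ± 0.48, adjusted p = 0.126). Rpl36al did not pass at either gate (0.45 ± 0.90 and 1.05 ± 0.96).

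Other lists of the translation machinery were described in the same way, with no test against the family. Of 16 translation factors, many of which carry TOP tracts, 1 rose at each gate, namely the elongation factor gene Eef1a1 (1.5 ± 0.30, adjusted p = 0.00815, in cortex and 1.52 ± 0.32, adjusted p = 0.0209, in hippocampus), and the list's medians were 1.14 and 0.55. Summed over the listed factors, the level was 1185 ± 262 CPM in CD11c-negative and 2875 ± 341 CPM in CD11c-positive APP cortex, and 1684 ± 195 and 2712 ± 146 CPM in APP hippocampus. Eef1a1 also rose in CD11c-positive APP against WT cortex (1.63 ± 0.30) but not hippocampus (1.05 ± 0.32, adjusted p = 0.0894). Of 75 tested genes of the mitochondrial ribosome, which is built from a separate set of proteins, 0 passed at either gate, with medians of 0.19 and 0.19. Of these, 1 gene, Mrps28, passed in CD11c-positive APP against WT hippocampus (higher, adjusted p = 0.0155), where 1.18% of all genes rose. It also passed in WT hippocampus against WT cortex (lower, adjusted p = 0.0348), where 1.4% of all genes fell. As 1 of 75 genes it is near both shares. Ribosome biogenesis factors (0 of 29 called, medians 0.21 and −0.01), RNA polymerase I subunits (0 of 13, 0.89 and 0.65), mTOR and TOP regulators (0 of 15, 0.15 and −0.29) and ribosome rescue factors (0 of 10, 0.00 and −0.56) had none past the threshold in any comparison. These medians stand beside 0.19 and 0 over all genes. Of all genes, 0.524% rose and 0.705% fell at the cortical gate, and 0.443% rose and 0.107% fell at the hippocampal gate. Homeostatic microglial genes went the other way, with 6 of 10 lower at the cortical and 4 of 10 at the hippocampal gate, among them Tmem119 (−2.0 ± 0.15 and −2.20 ± 0.17), the purinergic receptor gene P2ry12 (−1.34 ± 0.16 and −0.99 ± 0.17) and Cx3cr1 (−1.29 ± 0.17 and −1.2 ± 0.19).

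Among 3234 other genes at 50 CPM or more, those whose log2 level was most like the members' mean over the 23 replicates were Fth1 (r = 0.96), mt-Atp8 (0.90), Npc2 (0.90), Apoe (0.90), mt-Rnr2 (0.88), Fau (0.88), Pkm (0.88), Gm2000 (0.87), mt-Rnr1 (0.87) and mt-Cytb (0.87). They include the ferritin heavy chain, a lysosomal cholesterol carrier, apolipoprotein E and 4 transcripts of the mitochondrial genome. The likeness lay mostly between groups: after subtracting each group's mean it was 0.49 for Fth1, 0.53 for Apoe and 0.00 for Pkm.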

How the data were processed

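Per the labels' protocols, microglia were sorted into 384-well plates and sequenced on a NextSeq 500 after a Smart-seq2-based protocol. The authors deposited, for each library, a table of unnormalised whole-number counts, genes by barcodes. Per the submitters' processing notes, UMI-tools 0.5.3, HISAT2 2.1.0 and featureCounts 1.6.0 and the build GRCm38 (mm10) were used. No source used here says whether reads of a molecule were merged; a value of 1 made up 27.0% and values from 20 upwards 35.9% of the entries above 0, so the counts may be reads. How pseudogene reads were assigned is not given either.

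Groups came from sample titles. Of 2660 barcodes, 3 with fewer than 200 genes were removed, and 0 exceeded 20% mitochondrial counts. Each library held 69 to 80 barcodes and 956491 to 2340598 counts. The libraries drew on the same 83 distinct plate barcodes, and 0 of 630 library pairs were identical. Doublets were not called. Counts were summed over 36 libraries to 23 replicates and fitted with edgeR 4.0.16 (R 4.3.3): TMM scaling, filterByExpr, 6 group means, 17 residual degrees of freedom, quasi-likelihood test, Benjamini-Hochberg adjustment over 14892 genes, threshold 0.05. SE is the absolute log2 fold change over the square root of F. Where nothing says that titled animals were processed apart, p-values measure the spread between these samples only. The relative fit used summed member counts as library size. DESeq2 1.42.0 was an alternative. The test was tried on simulated data first; most of the smaller changes put in were not recovered, so a count of 0 does not show that a gene was unchanged.

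Members, lists and tests were chosen with earlier results of these data known, so no p is given for a sum over members. Named members were, per comparison, up to 8 higher and 8 lower past the threshold by p, the 8 highest by CPM, the paralogues, up to 6 and 6 of the relative fit and the 5 smallest p of an interaction; further ones were named after their values were seen. Same-numbered replicates of the 2 gates (cortex) and of the regions carry the same animal number in the titles, which is where the pairing comes from. The correlation of their deviations was −0.0657 to 0.0641. The highest with a replicate of another number was 0.0012 to 0.0644, so these values do not show the pairing. A member, a partner gene and a detail of the transgenic line are not reported here by name; the member is in all sums and counts.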

Additional observations from a re-analysis of the deposited data

Results flagged for a closer look

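In groups of 4, a value was picked out when its gap to the nearest replicate exceeded 0.829 of the group's range; chance does so in about 1 of 20 groups, and 12 of 145 groups tested were picked out. The ribosomal share of WT hippocampus replicate 4 was 1.41%, against 0.934 to 0.98% in the other 3. That of CD11c-negative APP cortex replicate 2 was 1.08%, against 1.15 to 1.16%. The mitochondrial share of CD11c-negative APP hippocampus replicate 2 was 1.33%, against 1.11 to 1.13%. In CD11c-positive APP cortex, replicate 2 was high for Rps3 (1023 CPM, others 664 to 717) and low for Rps27 (734 CPM, others 919 to 948), and replicate 4 was high for Rpl24 (106 CPM, others 63.7 to 64.9). Rps27 was at 704 CPM in WT cortex replicate 2, against 335 to 353. In hippocampus Rpl34 was at 365 CPM in CD11c-negative APP replicate 3 (others 141 to 172), Rpl4 at 733 CPM in WT replicate 2 (others 182 to 255) and Rps7 at 174 CPM in WT replicate 3 (others 56.4 to 62.0). Rpl39l was at 60.6 CPM in CD11c-negative replicate 1 and 31.2 CPM in CD11c-positive replicate 2 of APP cortex, with 0 to 3.04 CPM in the others.

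Genes named as pseudogenes of the members were not part of the comparisons. They took 0.989% of counts in CD11c-positive APP cortex and 1.09% in CD11c-positive APP hippocampus, with every replicate above all WT replicates of its region (0.446 to 0.588% and 0.378 to 0.699%).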

How the results depend on the processing

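None of the 34 named calls of a member in a comparison changed direction under the alternatives tried for it; the other called pairs were not followed gene by gene. Counts of called members moved by more than 1.5 times as follows, and the cause was not tested. Except where printed, the numbers of all genes called in these settings are not given here. A changed count therefore cannot be read as particular to the members. With DESeq2 they were 23 at the cortical gate (14 in the edgeR fit), 13 in CD11c-positive APP against WT cortex (8), 7 for the hippocampal genotypes (2), 2 for their interaction (0), 2 for the region in CD11c-negative APP cells (1) and 2 in WT cells (0), and in the relative fit 4 for the hippocampal genotypes (1), 3 for CD11c-positive APP against WT hippocampus (0) and 3 for the region in CD11c-negative APP cells (0). RLE scaling gave 1 at the hippocampal gate (7), 4 for CD11c-positive APP against WT cortex and 1 for the genotype interaction. RLE scaling moved the median of all genes from 0.15 to 0.02 in CD11c-positive APP against WT cortex and from 0.01 to 0.14 between the hippocampal genotypes (log2), and the members' medians there from 1.18 to 1.05 and from 0.41 to 0.59. Genes per cell as a covariate gave 0 at the cortical gate, 1 at the hippocampal gate and 0 in the hippocampal genotypes and both comparisons with WT. Counting cells that held 5 or more counts gave 63, 44, 17, 60, 63, 5 and 1 for the cortical gate, hippocampal gate, hippocampal genotypes, WT cortex, WT hippocampus, region in APP and region in WT, each of 69 tested members, where 455, 280, 156, 398, 457, 121 and 90 of 1966 tested genes rose and 475, 301, 290, 420, 479, 181 and 33 fell. Without cells that carried other cell type markers these were 5, 0, 0, 4, 6, 0 and, for the region in WT, unchanged at 0. No filter gave 1 for the hippocampal genotypes, 4 for WT cortex and 0 for the region in APP; TMM without the members and the genotype tag gave 1 and 0 for the hippocampal genotypes. In the relative fit TMM over the members gave 2 for the hippocampal genotypes and 2 for WT hippocampus, and added pseudogene counts gave 1 for the latter and 1 for the region in APP.

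The fit of the cortical gates alone called 22 with the replicate block and 29 without it, and the region in CD11c-negative APP cells 0 with the block. Leaving out 1 replicate gave 2 to 8 at the cortical gate, 0 to 5 at the hippocampal gate, 0 to 8 and 9 to 20 against WT cortex and hippocampus, 0 to 3 for the hippocampal genotypes, 0 to 2 and 0 to 1 for the region in APP and WT, and in the relative fit 1 to 3 for the hippocampal genotypes, 0 to 5 for WT hippocampus and 0 to 1 for the region in APP.

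With pseudogene counts added the group shares were 1.78% and 1.54% in WT cortex and hippocampus, 1.6% and 2.14% in CD11c-negative and 3.65% and 3.96% in CD11c-positive APP cells, and the log2 subunit ratio was −0.38 and −0.34 in CD11c-positive cortex and hippocampus. The median over cells gave 1.02% and a ratio of −0.39 in CD11c-negative APP cortex and 1.40% in CD11c-negative APP hippocampus. Cells of 600 to 800 genes, chosen after seeing the data, gave 1.37% in CD11c-negative APP cortex and 2.51% in CD11c-positive APP hippocampus. Without marker-carrying cells CD11c-negative APP cortex stood at 1.01% and the ratio of CD11c-positive cortex at −0.33. Leaving out 1 replicate moved the shares to 1.13 to 1.15% and 2.60 to 2.72% in the APP cortical gates, 1.48 to 1.55% and 2.77 to 3.02% in the hippocampal ones, and 1.19 to 1.31% and 0.961 to 1.12% in WT.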

Other observations

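Among cells with a count of a member, the log2 ratio of the median count between CD11c-positive and CD11c-negative APP cells had a median over members of 0.56 in cortex and 0.13 in hippocampus. It was above 0 for 60 of 81 and 43 of 80 members. Against WT the median was −0.41 in cortex, above 0 for 16 of 80 members, and 0.54 in hippocampus, above 0 for 50 of 80. In cortex, then, fewer WT cells carried a member, with more counts in those that did. Between the WT groups the median was −1.23 for hippocampus against cortex. These values rest on unthinned counts and were not tested.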
